A study of Homo sapiens with 2 samples.

Results

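The RAB27 GTPases and the proteins that bind them were examined as 10 genes: the GTPases RAB27A and RAB27B, the synaptotagmin-like genes SYTL1 to SYTL5, EXPH5, MLPH and UNC13D. They were taken by gene symbol from the platform annotation, which gave 10 probe sets out of 33297, 1 for each gene, and 10 of the 18417 genes with a probe set of their own. The cells were K562, a human chronic myeloid leukaemia line with erythroid features, and both cultures carried an inducible short hairpin RNA against BMI1, a Polycomb repressive complex subunit. One culture was kept with doxycycline for 96 h to induce the hairpin while the other had none, which left 1 array for each condition. The labels do not say whether the line was a single clone, give no time for the control culture, and describe no doxycycline-treated culture that lacked the hairpin, so doxycycline, the hairpin and any difference in handling cannot be told apart. The values are log2 RMA values, and a difference is doxycycline minus no doxycycline. With 1 sample in each group there was no replicate check, no difference could be set against a spread between cultures, and no p-value was computed. The set was chosen with the differences between these same 2 arrays known, SYTL3's among the largest, and was in that sense selected on them, so the values of its genes are a description.

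RAB27A and RAB27B are small GTPases that sit on secretory granules, lysosome-related organelles and multivesicular bodies in their GTP-bound form. They act through effectors that tether the vesicle, link it to actin and myosin, or prime it for fusion with the plasma membrane. In blood cells they are known for the release of cytotoxic granules, of platelet dense granules and of exosomes. The synaptotagmin-like proteins bind RAB27 at their N-terminal end and membranes through C2 domains, MLPH and EXPH5 bind it through a similar N-terminal domain, and UNC13D is a priming factor.

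BMI1, the gene the hairpin targets, had a lower signal with doxycycline. The probe set shared by BMI1 and the COMMD3-BMI1 read-through had 10.00 with doxycycline and 10.84 without, a difference of -0.84 or 1.79-fold lower. The median over all probe sets was 6.77 with doxycycline and 6.78 without. Of 9 measured erythroid markers, all had values above 6 in both samples and 8 were lower with doxycycline, with a median value of 9.44 against 9.66 and a median difference of -0.18. By at least 1.2-fold, 4 of the 9 were lower and 0 higher. Among all genes that reached 6 in at least 1 sample, these shares were 4.05% and 6.04%. The part of this erythroid shift in the differences below was not tested. Of 4 measured melanocyte markers, a cell type in which RAB27A and MLPH carry pigment granules, 0 reached 6 in either sample. Of 6 megakaryocyte and platelet markers, 4 were higher with doxycycline, among them ITGA2B at 9.75 against 9.62, with a median difference of 0.09. The largest upward difference, 0.24, was that of GP1BA, which was under 6 in both samples. The 2 lower ones were under 6 in both samples and were the platelet chemokine genes PPBP, which differed by -0.29 and was the only one of the 6 past 1.2-fold, and PF4, which differed by -0.22. Of the other markers measured, 3 of 6 for T and NK cells, 3 of 5 for granulocytes and 4 of 5 for fibroblasts reached 6 in each sample, with median differences of 0.07, -0.05 and 0.01. GZMB, a T and NK cell marker, differed by 0.28 and ELANE, a granulocyte marker, by -0.33, both past 1.2-fold. A value of 6 is a floor on dim signals and not a detection call, and in a bulk sample fewer cells of a type and less RNA in each cell cannot be told apart.

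The 2 GTPases and SYTL3, SYTL4 and SYTL5 were higher in the doxycycline sample, while the other effectors lay close to 0 or slightly lower. In all, 7 of the 10 genes were higher with doxycycline, against 49.5% of all 18417 genes. SYTL3 and RAB27B differed by at least 1.5-fold, and 0 of the 10 were lower by that much. Over all genes with no floor, 0.418% reached 1.5-fold on the higher side and 0.358% on the lower side. At 1.2-fold, RAB27A and SYTL5 joined them, which made 4 of 10 higher and 0 lower, against 7.29% and 5.99% of all genes. The median difference was 0.14 over the 10 genes and 0 over all genes. Of the 10 genes, 9 passed the floor of 6 in at least 1 sample, and SYTL3 and SYTL5 passed it only through the doxycycline sample. Among the 13471 genes past that floor, the share beyond 1.5-fold was 0.364% upward and 0.111% downward, and the share beyond 1.2-fold was 6.04% upward and 4.05% downward, beside 2 and 4 upward and 0 downward of the 9. Because the genes were picked with these values known, nothing further is read from these shares.

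**Figure D1:**
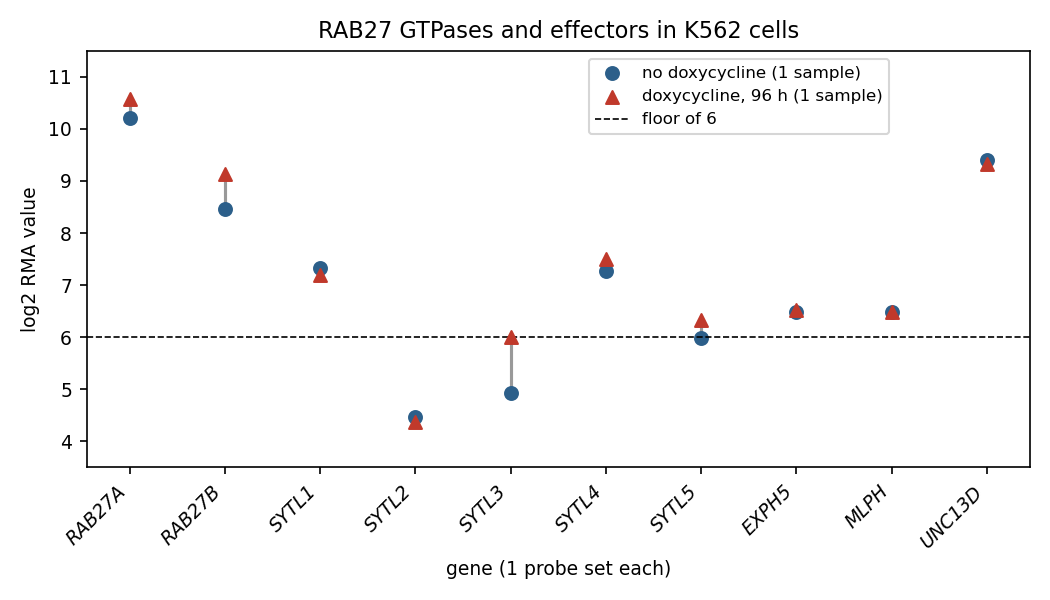
Log2 RMA values (vertical axis) of the 10 RAB27 GTPases and effectors, 1 probe set each, in the doxycycline sample (triangles) and the control sample (circles), with a dashed line at the floor of 6. SYTL3 spans 4.93 to 6.01 and RAB27B 8.46 to 9.14, while EXPH5, MLPH and UNC13D have almost overlapping symbols.

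Upstream sequence of the 4 genes that differed by at least 1.2-fold is shown because they were higher together. The 250 bases before each annotated start were read from a RefSeq promoter table on GRCh38.p14, which held 19 starts for 8 of the 10 genes, with SYTL2 and UNC13D not among them. For each of the 4 genes the start whose window holds TGANTCA is printed, so its presence in each printed sequence follows from that choice. The other windows of these genes lack it. TGANTCA is looser than the AP-1 core, TGAGTCA or TGACTCA, since N is any base. Capitals mark matches to any of 4 motifs searched on both strands. The other 3 motifs were AGATAA, which GATA factors bind, then the E-box core CACGTG, and TGATGNAA, the core of amino acid response elements. The array does not tell which start was in use. The RAB27A window is the third of 5 and lies at chr15:55270400-55270649 on the minus strand. The RAB27B window is the second of 2, at chr18:54828227-54828476 on the plus strand. The SYTL3 window is the second of 2, at chr6:158662697-158662946 on the plus strand, and the SYTL5 window is the first of 2, at chrX:38006303-38006552 on the plus strand. Each is written 5′ to 3′ in the direction of its gene.
RAB27A: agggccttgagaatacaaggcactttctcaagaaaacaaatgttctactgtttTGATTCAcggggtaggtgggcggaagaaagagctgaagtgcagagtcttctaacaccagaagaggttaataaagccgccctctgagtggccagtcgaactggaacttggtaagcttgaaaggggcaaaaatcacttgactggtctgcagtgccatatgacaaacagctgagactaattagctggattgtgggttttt
RAB27B: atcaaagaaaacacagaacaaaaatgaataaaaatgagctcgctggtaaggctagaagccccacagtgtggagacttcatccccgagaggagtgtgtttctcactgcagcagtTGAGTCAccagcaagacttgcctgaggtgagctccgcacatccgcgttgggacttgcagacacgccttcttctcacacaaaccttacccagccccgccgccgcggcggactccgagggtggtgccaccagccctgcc
SYTL3: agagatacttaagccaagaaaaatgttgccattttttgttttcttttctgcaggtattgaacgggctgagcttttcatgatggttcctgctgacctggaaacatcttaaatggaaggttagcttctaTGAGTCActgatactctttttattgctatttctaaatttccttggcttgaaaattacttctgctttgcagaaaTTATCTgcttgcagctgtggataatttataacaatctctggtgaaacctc
SYTL5: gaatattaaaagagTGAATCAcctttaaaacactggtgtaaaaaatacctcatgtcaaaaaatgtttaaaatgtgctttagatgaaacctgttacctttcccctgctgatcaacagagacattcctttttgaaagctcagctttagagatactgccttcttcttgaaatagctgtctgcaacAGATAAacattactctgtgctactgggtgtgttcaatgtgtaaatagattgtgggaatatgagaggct

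TGANTCA lay 197 bases before the RAB27A start, 137 before that of RAB27B, 123 before that of SYTL3 and 236 before that of SYTL5, counted from the first base of the match. The match was TGAGTCA for RAB27B and SYTL3, TGATTCA for RAB27A and TGAATCA for SYTL5. The printed RAB27A and SYTL5 windows therefore lack the AP-1 core. TGANTCA was present in 5 of the 19 windows, the fifth, as TGACTCA, belonging to EXPH5, which did not differ by 1.2-fold. With any base at N, it was in 6.57% of all 35116 windows, and 8.06% of 27305 genes had it in at least 1 window. Genes with more annotated starts have more chances of a match. AGATAA lay in the SYTL3 window 50 bases before the start and in the SYTL5 window 68 bases before it, and in the most upstream RAB27A window, which is not printed. It was present in 4 of the 19 windows, the fourth belonging to EXPH5, 92 bases before its second start, against 9.17% of all windows. CACGTG was found in 2 windows, of MLPH and EXPH5, against 6.34% of all windows. TGATGNAA was found in 1 window, that of SYTL1, as TTGCATCA, 46 bases before the start, against 3.14% of all windows. SYTL1 was among the genes with a lower value under doxycycline. In the windows printed no match overlapped another, each match describes letters only, and the motifs were chosen after the expression values were seen.

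RAB27A, the form found in melanocytes, cytotoxic lymphocytes and most secretory blood cells, had 10.58 with doxycycline and 10.22 without. Its difference of 0.36, or 1.29-fold higher, compares with a robust SD of 0.13 among the differences of the 500 genes closest to it in mean level. Of those 500 genes, 9 differed by at least as much in either direction. RAB27B, the form known from platelets and secretory epithelia, had 9.14 with doxycycline and 8.46 without. That is a difference of 0.68, or 1.60-fold higher, beside a robust SD of 0.14, and 0 of the 500 genes nearest in level differed by as much. RAB27B was the 30th highest difference among the 13471 genes past the floor, and RAB27A the 325th, in a set chosen with these differences known. Both GTPases were therefore above 6 in both samples and higher in the same one.

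The 5 synaptotagmin-like genes did not share a direction. SYTL3, reported in cytotoxic granule transport and lysosome exocytosis, had 6.01 with doxycycline and 4.93 without, a difference of 1.08 or 2.12-fold higher. The control value lay below the floor and the doxycycline value just above it. Among the 500 genes of nearest mean level the robust SD was 0.22, and 0 of them differed by as much in either direction. SYTL3 was the 3rd highest difference past the floor, which it passed only through the doxycycline sample, and the 5th highest over all genes. As the set was chosen with this difference known, these ranks and the count of 0 are a description. Outside the 10 genes, those past the floor with the nearest difference over the 2 samples were TCN1, a cobalamin-binding protein gene, at 1.04, SLC7A11, the cystine and glutamate exchanger gene, at 1.03, and IL20RB, a cytokine receptor gene, at 1.02. Their gaps to SYTL3 were 0.05, 0.05 and 0.06.

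SYTL4, also called granuphilin, which docks insulin granules and acts with RAB27A in exosome release, had 7.51 with doxycycline and 7.27 without. Its difference was 0.24, or 1.18-fold higher, beside a robust SD of 0.14, and 74 of the 500 genes nearest in level differed by at least as much. SYTL5 had 6.32 with doxycycline and 5.99 without, so it stood just below the floor in the control sample, and its difference of 0.33 was 1.26-fold. Among its 500 nearest genes the robust SD was 0.19 and 43 differed by at least as much. SYTL1, a tether in neutrophil and epithelial secretion, had 7.19 with doxycycline and 7.32 without, a difference of -0.13 or 1.09-fold lower. SYTL2, which acts at the plasma membrane in melanocytes and lymphocytes, had 4.37 with doxycycline and 4.46 without, under the floor in both samples. Its difference was -0.10, and 326 of 500 genes at that level differed by at least as much. The differences of SYTL1 and SYTL2 were smaller than the robust SD of 0.15 and 0.22 at their levels.

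The effectors outside the synaptotagmin-like family differed little. MLPH, or melanophilin, which links RAB27A to myosin Va, had 6.49 with doxycycline and 6.48 without, a difference of 0.01. EXPH5, also named Slac2-b, which acts with RAB27B in exosome release, had 6.53 with doxycycline and 6.48 without, a difference of 0.05. UNC13D, or Munc13-4, which primes cytotoxic granules for fusion, had 9.32 with doxycycline and 9.40 without, a difference of -0.07 or 1.05-fold lower. All 3 were above 6 in both samples, and their differences were below the robust SD of 0.19, 0.19 and 0.14 at their levels. In the doxycycline sample 9 of the 10 genes had at least 6, and in the control sample 7 of 10, against 71.9% of all genes in each sample. The values nearest to the floor were those of SYTL3 with doxycycline, at 6.01, and SYTL5 without it, at 5.99.

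**Figure D2:**
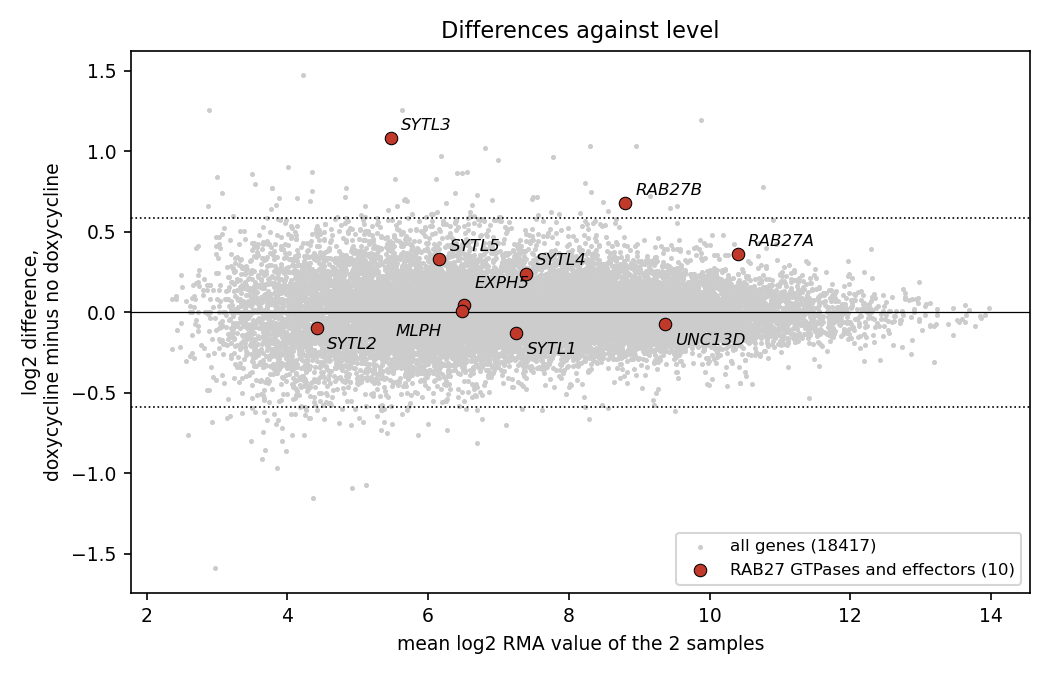
Log2 difference (vertical axis, doxycycline minus no doxycycline) against the mean log2 RMA value of both samples (horizontal axis) for 18417 genes in grey and the 10 RAB27 GTPases and effectors in red, with dotted lines at 1.5-fold. SYTL3 at 1.08 and RAB27B at 0.68 lie beyond the upper line and 0 of the 10 lie beyond the lower one.

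The genes that surround RAB27 in the secretory pathway were looked at through 7 further lists, of which 72 of 76 genes were measured. Of the 72, 44 were higher and 28 lower with doxycycline, against 49.5% higher over all genes, and 0 differed by 1.5-fold in either direction. At 1.2-fold 4 were higher and 3 lower, shares no larger than the 7.29% and 5.99% of all genes, and the median difference was 0.03. The regulators of the RAB27 nucleotide cycle and of Rab prenylation had 5 of 8 genes higher and a median difference of 0.03. TBC1D10B, one of the TBC1D10 GTPase-activating proteins, which switch off RAB27, was the lowest of them, with a value of 8.09 under doxycycline against 8.46, which is a difference of -0.36 or 1.29-fold lower. Its relative TBC1D10A had 8.18 against 8.08, a difference of 0.10. GDI2, a Rab dissociation inhibitor, differed by 0.10 and CHML, a Rab escort protein, by -0.08. CHM was not analysed here.

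Among the other proteins that carry a Rab-binding domain of this kind or serve as their myosins, 6 of 7 were higher, with a median difference of 0.09, but only RPH3AL (0.07) and MYO7A (0.02) passed the floor. The RAB3 GTPases, which share several effectors with RAB27, split evenly, with 2 of 4 higher. RAB3B had 6.69 with doxycycline and 6.32 without, a difference of 0.37 or 1.29-fold higher, whereas RAB3A differed by -0.10 and RAB3D by -0.07. The UNC13 relatives of UNC13D had 2 of 4 genes higher, with UNC13A at a difference of 0.10, BAIAP3 at 0.09 and UNC13B at -0.03.

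Of the 22 SNAREs and Sec1/Munc18 proteins measured, which carry out membrane fusion, 13 were higher and the median difference was 0.03. STXBP3, the partner of syntaxin 4 and the only one of the 22 past 1.2-fold, had 9.70 with doxycycline and 9.42 without, a difference of 0.28. SNAP23, the SNARE of most non-neuronal granule fusion, had 10.60 against 10.35, a difference of 0.25. VAMP7, a SNARE of lysosomes and late endosomes, differed by 0.23, and SNAP25, at 5.87 against 6.09, by -0.22. STX11 and STXBP2, which act with RAB27A and UNC13D in cytotoxic granule release, were picked out after their values were seen and differed by -0.17 and 0.18.

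The synaptotagmins, which share the C2 domains of the SYTL proteins but span the membrane and do not belong to that family, had 9 of 17 genes higher and a median difference of 0.02. By at least 1.2-fold, 2 of the 17 were higher and 2 lower. SYT10 had 7.39 with doxycycline and 7.04 without, a difference of 0.35, and SYT12 and SYT6 differed by 0.20 and 0.15. SYT1 and SYT9, under the floor in both samples, differed by 0.33 and -0.31. SYT15 differed by -0.33, at 7.30 against 7.63, and as it has a near-identical copy in the genome its value is uncertain. Of the exosome and multivesicular body genes, 7 of 10 were higher, with a median difference of 0.08 and 0 past 1.2-fold. TSG101, an ESCRT subunit, had 10.09 with doxycycline and 9.84 without, a difference of 0.25. SDCBP, the syntenin of exosome budding, differed by 0.19 and the tetraspanin gene CD81 by -0.15. VPS4B, an ESCRT ATPase, differed by 0.18, and its paralogue VPS4A by -0.10. PDCD6IP was not analysed here.

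**Figure D3:**
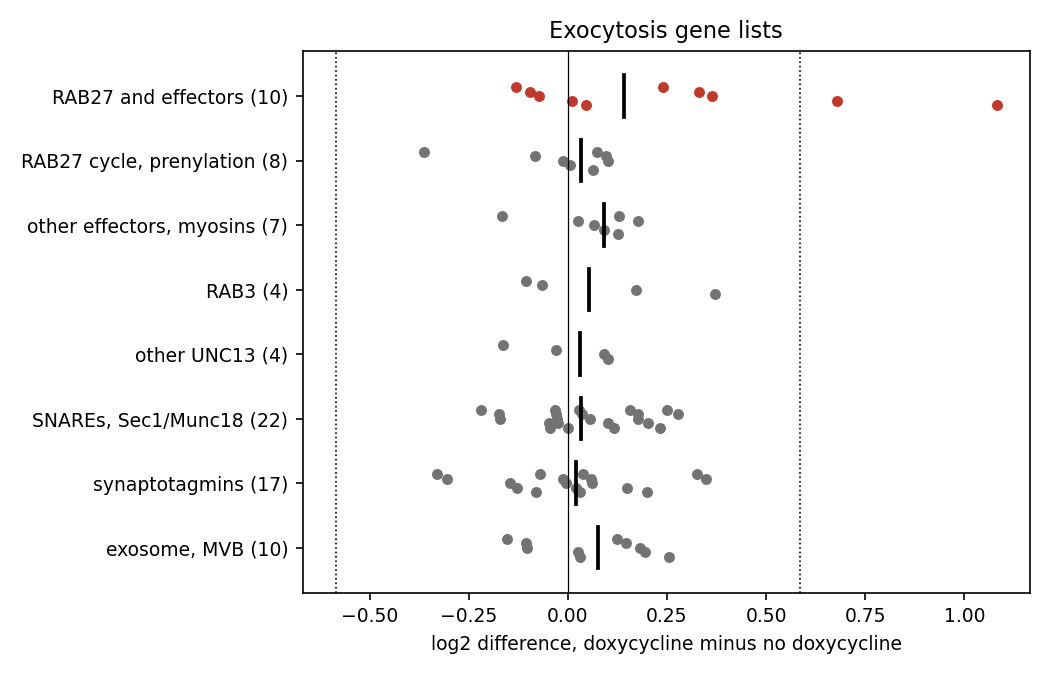
Log2 differences (horizontal axis, doxycycline minus no doxycycline) of the genes in each list, 1 point per gene with the number measured in brackets, the list median as a black bar and 1.5-fold as dotted lines. SYTL3 and RAB27B, at 1.08 and 0.68, are the points beyond 1.5-fold, and the 7 other lists have medians from 0.02 to 0.09.

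The chromosomal neighbours of the 4 genes that differed by at least 1.2-fold were compared to see whether nearby genes had similar values. For each, the 2 nearest measured protein-coding genes on either side were taken from the RefSeq gene order on GRCh38.p14, a step chosen after the values were seen. Genes without a probe set of their own were passed over, so genes named below as next to a member need not adjoin it. Of these 16 neighbours, 10 were higher with doxycycline, 1 by at least 1.2-fold, and 2 were at least 1.2-fold lower, with differences from -0.33 to 0.32 and a median of 0.05. Over all genes 49.5% were higher, 7.29% by at least 1.2-fold, and 5.99% were lower by that much, so with 16 genes these counts do not set the neighbours apart. Next to SYTL3 on chromosome 6, RSPH3, a radial spoke gene, had 7.41 with doxycycline and 7.10 without, a difference of 0.32, while DYNLT1 on the other side differed by -0.08. The next genes out, TAGAP, which was under the floor in both samples, and TMEM181, differed by -0.28 and -0.07. Next to RAB27B on chromosome 18, CCDC68 differed by 0.24 and DYNAP by -0.33, the latter with values of 3.53 and 3.85, under the floor. Further out, C18orf54 and TCF4 differed by 0.05 and 0.03. Next to RAB27A on chromosome 15, RSL24D1, a ribosome biogenesis gene, differed by 0.24 and PIGB by 0.06. UNC13C and PYGO1, further out and under the floor in both samples, differed by -0.16 and -0.10. Next to SYTL5 on chromosome X, H2AP, under the floor in both samples, and SRPX differed by 0.20 and 0.19. DYNLT3 and RPGR, further out, differed by 0.17 and 0.04, so every neighbour compared for SYTL5 was higher. In each of the 4 places the RAB27 or SYTL gene had the highest difference of the 5 genes compared, and as these 4 were picked for their differences this order is a description.

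**Figure D4:**
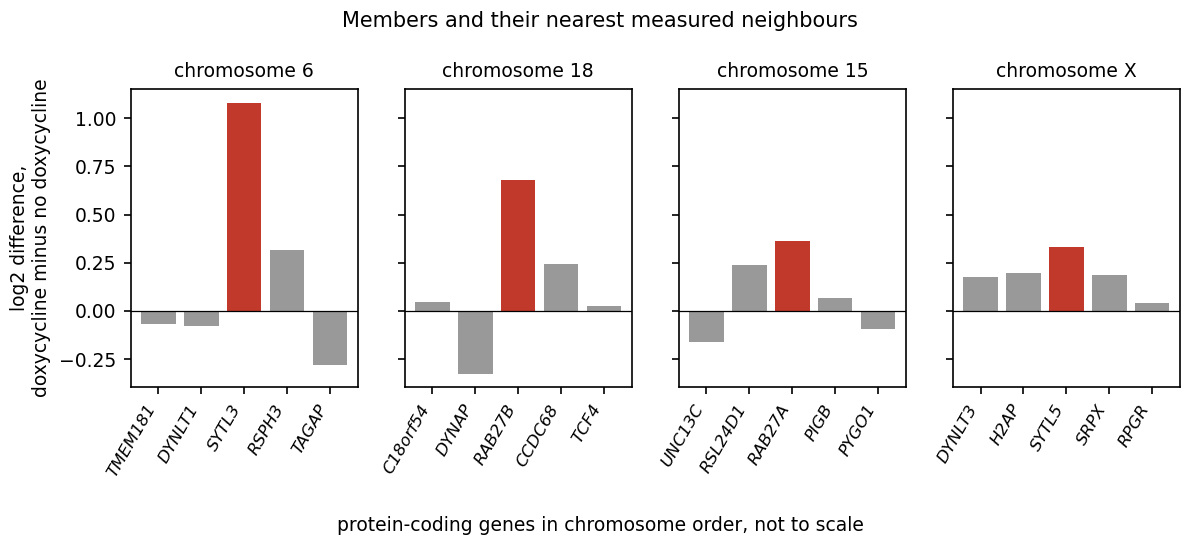
Log2 differences (vertical axis, doxycycline minus no doxycycline) of SYTL3, RAB27B, RAB27A and SYTL5 in red and of the 2 nearest measured protein-coding genes on each side in grey, in chromosome order and not to scale. The grey bars run from -0.33 for DYNAP to 0.32 for RSPH3, and each red bar is the tallest in its panel.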

How the data were processed

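Total RNA of 2 K562 cultures was hybridised to 1 Affymetrix array each. The submitters' processing notes name RMA and Affymetrix Expression Console 1.1.1 for the deposited log2 values. This method subtracts background, equalises the distributions and combines probes, and it compresses differences of dim probe sets. The log2 base was taken from RMA and the range, 1.61 to 14.6, as the sources used here do not state it. The series' design text names an HG-U133 array, while the probe set numbers and annotation are those of a whole-transcript array. Array number limits the precision.

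Of 33297 probe sets, 19460 had 1 symbol, 1754 several and 12083 none here. Of the 19460 probe sets with 1 symbol, 19429 were matched by Entrez ID to RefSeq (GRCh38.p14). A gene took its brightest probe set. The robust SD is 1.4826 times the median absolute deviation of the differences of the 500 genes nearest in mean level, with no floor. The members and lists were chosen with earlier results of these data known. Named were BMI1, every member, from each other list the 4 genes past the floor that differed most in either direction, and the 3 genes nearest to the leading member in difference; other names were chosen after their values were seen. Alternatives were other probe set choices, scalings (median centring, quantile normalization, loess with span 0.3) and floors. Proteins were not compared, because sequences for them were not used here. Computation was in Python 3.11.15 (pandas 2.3.3, numpy 2.4.6), the loess trend in statsmodels 0.14.6 and plotting in matplotlib 3.10.9.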

Additional observations from a re-analysis of the deposited data

How the results depend on the processing

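Each member's difference kept its sign and moved by less than 0.15, the pooled SD of the difference between probe sets of 1 gene (485 genes), under the mean over probe sets, the dimmest probe set, median centring, quantile normalization and subtraction of a loess trend. SYTL3 ranged from 1.08 to 1.09, RAB27B from 0.67 to 0.69, RAB27A from 0.36 to 0.38, and MLPH from 0.01 to 0.02. Each member had 1 probe set, so the choice of probe set could not change it. The scalings acted on the same 2 arrays, so a kept difference says nothing about the spread between cultures. The yardstick of 0.15 is also larger than the whole difference of SYTL1, SYTL2, EXPH5, MLPH and UNC13D. The 7 list medians were above 0 as reported and under each of the 3 scalings, for instance 0.02 to 0.03 for the synaptotagmins and 0.09 to 0.10 for the other effectors and myosins. The counts changed with the floor on dim signals. With a floor of 7, and likewise with a floor of 8, 1 member (RAB27B) was at least 1.5-fold higher and 2 (RAB27A and RAB27B) were at least 1.2-fold higher, since SYTL3 and SYTL5 lie below these floors. The members at or above 5 were 9 with doxycycline and 8 without, those at or above 7 were 5 and 5, and those at or above 8 were 3 and 3, so the gap of 9 against 7 at a floor of 6 narrowed at 5 and was gone at 7 and 8. Leaving out a replicate was not possible with 1 sample in each group. No paired analysis was possible because each group held 1 sample.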
